A study of Mus musculus with 4 samples.

Results

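*Lhx2* cells are the day 6 gastruloid cells that held at least 2 UMIs of *Lhx2*, had *Myl7* under 30 per 10000 UMIs, and held fewer than 3 UMIs of *Epcam* and fewer than 2 of *Sox2*. A UMI is a molecular identifier that counts 1 captured transcript. Of the 6628 cells in the day 6 matrix, 5850 had at least 2000 UMIs and a mitochondrial share under 20%, and 468 of these were *Lhx2* cells, 8.0% (95% exact Clopper-Pearson interval 7.317 to 8.725%). The series as a whole holds 31330 cells. The members were chosen by measured values of *Lhx2*, *Myl7*, *Epcam* and *Sox2*, so the levels of these 4 genes describe the choice and show nothing else.

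Gastruloids are aggregates of mouse embryonic stem cells that elongate and form derivatives of the germ layers. Those of this series came from the wild type Zx1 line and received a pulse of the Wnt agonist Chiron. They were then grown with bFGF, VEGF and ascorbic acid from day 4, and these factors had been withdrawn from the medium before day 11. At days 4, 5, 6 and 11 at least 8 gastruloids were pooled, dissociated and made into 1 Chromium 3′ library of polyadenylated RNA. With 1 library per day there was no replicate, hence no test and no SE. Intervals are at 95% and cover counting error only. CPM here is the number of UMIs of a gene per 1000000 UMIs of the same cells, and does not stand for cardiopharyngeal mesoderm.

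*Lhx2* encodes a LIM homeodomain transcription factor. In the mouse embryo it acts in the eye field, forebrain and limb bud, and in the pharyngeal mesoderm that forms branchiomeric head muscle, where it is expressed with *Isl1*, *Tcf21*, *Msc* and *Tbx1*. This mesoderm arises beside the second heart field, the progenitor pool that adds *Isl1*-positive cells to both poles of the heart. Nearby splanchnic cells form the juxta-cardiac field, marked by *Hand1* and *Mab21l2*, and the septum transversum and proepicardium, marked by *Tbx18*, *Wt1* and *Gata4*.

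The *Lhx2* cells together held 14971542 UMIs. Their depth ran from 5451 to 142577 UMIs with a median of 25320.5, close to the median of 25596.5 in the 5382 other day 6 cells. *Lhx2* lies at chr2:38339281-38369733 on the plus strand (mm10, GENCODE vM21). Among the members 153 held 2 UMIs of it, 103 held 3, 67 held 4 and 48 held 8 or more, with a median of 3 and a highest count of 26. The summed level was 130.5 CPM in the members and 4.066 CPM in the other cells. Of 528 cells with at least 2 UMIs, 60 were left out by the limits, of which 38 failed the one on *Myl7*, 20 that on *Sox2* and 11 that on *Epcam*. A doublet score placed 66 members, 14.1%, among the 8% of day 6 cells with the highest scores, against 7.469% of the other cells and 18.02% of the 666 cells with *Sox2*. Day 6 shared 19 barcodes with day 5, 16 with day 11 and 5 with day 4. Among these were 1 member with day 5 and 2 with day 11.

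The name proposed for these cells, pharyngeal-like mesoderm, was checked against 11 regulators of pharyngeal muscle progenitors, not all of which are described. Of the 5 with at least 10 CPM in either set, *Lhx2* aside, 1 was at least 2 times higher in the members than in the other day 6 cells, and the median ratio was 1.099. *Isl1* was slightly lower, *Tcf21* moderately higher, *Tbx1* near 0 and *Msc* at 0. *Isl1* and *Tbx1* were not higher in the members and so do not bear out the name. They do not exclude it either, as *Tbx1* was rare in the other cells too. The paper also annotates several day 6 clusters as pharyngeal mesoderm, so the other cells are likely to include such cells. *Msc* was too rare in all sets to bear on the name, and the cells are called by the gene that chose them.

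*Isl1*, which lies at chr13:116298281-116309689 on the minus strand and marks second heart field progenitors, was at 32.06 CPM (29.26 to 35.06) in the *Lhx2* cells and at 36.71 CPM in the other cells. The plain ratio of these levels was 0.8735 (0.7943 to 0.9587). A UMI of *Isl1* was found in 207 members, 44.23% (39.67 to 48.86%), and in 43.31% of the other cells. After each cell was thinned at random to 5000 UMIs the shares were 14.96% and 15.64%, with intervals that overlap. In the 666 cells with at least 2 UMIs of *Sox2*, which carried neural, endodermal and pluripotency genes, the share was 21.02% at a median depth of 40772 UMIs and 3.469% after thinning.

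*Tcf21*, a bHLH factor of pharyngeal muscle and epicardial progenitors at chr10:22817281-22820174 on the minus strand, was at 29.46 CPM (26.77 to 32.34) in the members and at 18.54 CPM in the other cells. The plain ratio was 1.589 (1.434 to 1.756). Its UMIs were found in 212 members, 45.3%, and in 27.07% of the other cells. Thinned to 5000 UMIs, 13.03% (10.12 to 16.43%) of members and 9.284% (8.514 to 10.1%) of the other cells held it, against 1.207% of the cells with *Sox2*. Many of the other cells had been set aside for cardiac, epithelial or neural transcripts. Against the 4067 other cells that passed the same limits on *Myl7*, *Epcam* and *Sox2*, a comparison added after the data had been seen, the thinned share was 11.58% and the interval of the members overlaps it.

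The share of members with *Isl1* was about the same with and without *Tcf21*. Of the 61 thinned members with *Tcf21*, 14.75% also held *Isl1*, and of those without *Tcf21*, 14.99% did. Without thinning the shares were 47.64% and 41.41%, as 101 members held both, 111 held only *Tcf21*, 106 only *Isl1* and 150 neither. This is a description of sparse counts in the cells of 1 library.

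*Tbx1*, the T-box gene of pharyngeal mesoderm, was found in 2 of 468 members with 1 UMI each, and in 2.10% of the other cells. *Msc*, a bHLH repressor of the same progenitors, was found in 0 of 468 members, where 3 cells would make a share of 0.641% and the exact upper limit on cells with a UMI is 0.7851%, and in 18 of the other cells, 0.3344%. A difference in *Msc* was therefore not detectable at this depth. *Eya1*, a transcriptional cofactor of myogenic and placodal precursors, was at 5.744 CPM in the members against 9.548 CPM. *Ebf1*, of the early B cell factor family, was at 10.69 CPM (9.095 to 12.48) against 25.86 CPM. *Ebf2* and *Ebf3* were at 4.208 and 10.69 CPM against 4.265 and 8.825 CPM. The skeletal myogenic gene *Myod1* had 0 UMIs in the members and *Myf5* was found in 0.641% of them.

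**Figure D1:**
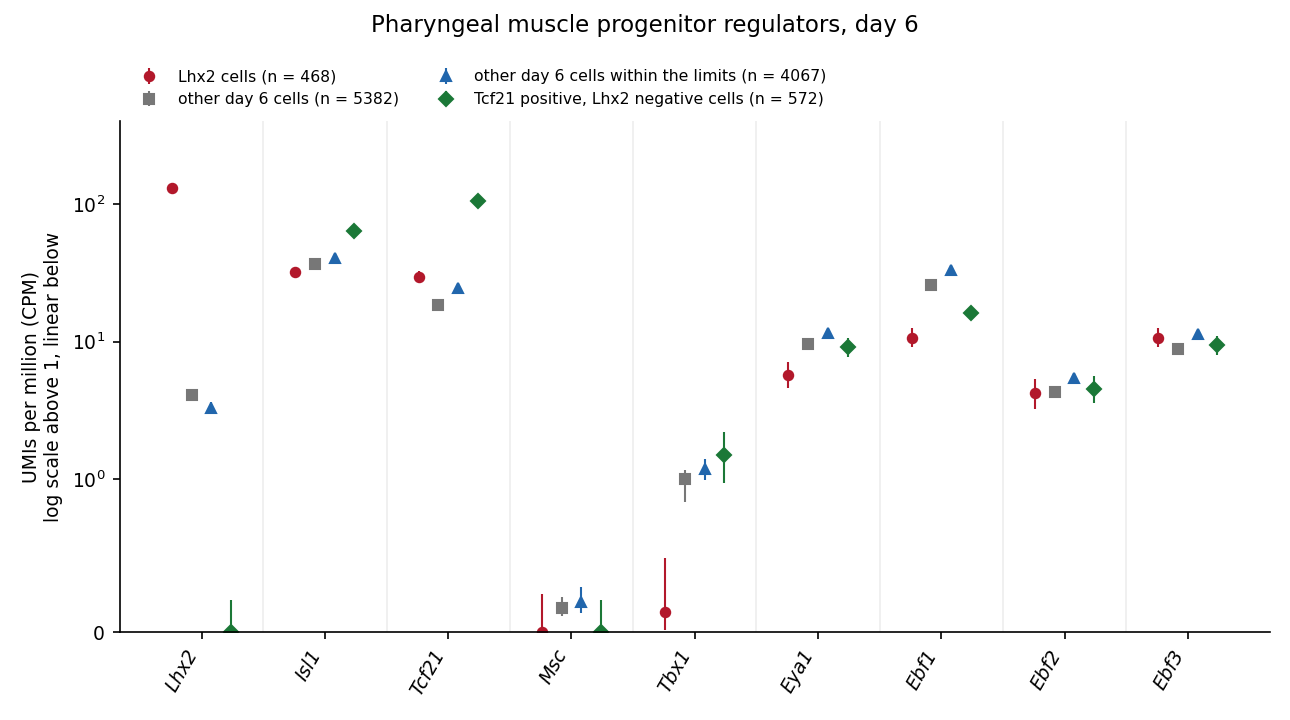
Summed level in CPM (log axis above 1 and linear below) of 9 pharyngeal muscle progenitor regulators in 4 sets of day 6 cells, with 95% Poisson intervals. *Lhx2* and, in the *Tcf21* positive set, *Tcf21* were used to choose the cells. In the *Lhx2* cells *Isl1*, at 32.06 CPM, lies below all 3 of the other sets, *Tcf21* is at 29.46 CPM and *Msc* is at 0.

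Across all genes the members were compared with the other day 6 cells by size alone, as the ratio of CPM plus 10, over 8215 genes with at least 10 CPM in either set. The median ratio was 1.009. At least 2 times higher in the members were 51 genes, 0.621% of those compared, and at least 2 times lower were 74, 0.901%. Against the other cells within the limits 56 of 8176 genes, 0.685%, were at least 2 times higher and 47, 0.575%, at least 2 times lower.

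Among genes of at least 50 CPM in the higher set, to which the order of highest and lowest ratios is limited here, the highest ratios were led by *Sfrp5*, *Mab21l2* and *Alcam*. *Sfrp5*, a secreted Wnt inhibitor expressed near the venous pole of the forming heart (chr19:42197971-42202252), was at 168.1 CPM (161.5 to 174.7) in the members and 35.8 CPM in the other cells. *Mab21l2*, a gene of the juxta-cardiac field (chr3:86545581-86548629), was at 137.5 CPM (131.6 to 143.5) against 28.2 CPM. *Alcam*, a cell adhesion molecule of early cardiac progenitors (chr16:52248996-52454074), was at 127.1 CPM (121.5 to 132.9) against 26.33 CPM. *Shox2*, a homeobox gene of the sinus venosus and pacemaker region (chr3:66971727-66981771), was at 60.92 CPM (57.03 to 65.0) against 16.72 CPM. These 4 genes had ratios of 3.887, 3.860, 3.774 and 2.654, and ratios of 4.45, 3.72, 3.556 and 3.22 against the other cells within the limits. With *Myl7* under 10 per 10000 in the members the ratio of *Shox2* was 1.801, below 2.

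The rest of the 15 highest ratios, 2.296 to 2.780, belonged to *Asb4*, *Gata6*, *Flrt2*, *Gata4*, *Vsnl1*, *Ackr3*, *Sfrp1*, *Dkk1*, *Map1b*, *Hand1* and *Unc5c*. *Gata6* and *Gata4*, zinc finger factors of cardiac mesoderm and endoderm, were at 385.4 and 87.7 CPM in the members and at 144.7 and 28.92 CPM in the other cells. *Vsnl1*, a calcium sensor gene expressed in the sinus venosus, was at 65.32 against 20.27 CPM. In 456 day 6 cells with high *Myl7* and without *Lhx2*, *Vsnl1* was at 115.5 CPM and *Shox2* at 79.7 CPM, above their levels in the members. The rest of the 15 were lower there than in the members, with *Sfrp5* at 129.0 CPM. Against the other cells within the limits the lowest ratios among the 15 were those of *Hand1*, 1.933, and *Unc5c*, 1.946. Without the 8% of cells with the highest doublet scores 79 genes were at least 2 times higher, and the part of doublets in the other differences was not tested further.

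The share of members in which a UMI of these genes was found varied, and a cell without one may still express the gene. *Gata6* had a UMI in 98.72% of the members and *Asb4* in 97.01%. *Mab21l2* was found in 78.85%, *Alcam* in 66.03%, *Sfrp5* in 65.17%, *Vsnl1* in 45.73% and *Shox2* in 34.83%. Per cell, *Sfrp5* ran from 0 to 16.86 UMIs per 10000 with a median of 0.8722, and *Shox2* from 0 to 11.77 with a median of 0. *Gata6* had a median of 3.978 per 10000 with quartiles at 2.567 and 5.522. In the cells with *Sox2* the shares were 28.08% for *Gata6*, 9.76% for *Mab21l2*, 10.21% for *Sfrp5* and 8.408% for *Shox2*. After thinning the members held these 4 genes in 77.99, 45.09, 41.45 and 16.88% of cells, and the cells with *Sox2* in 9.351, 3.167, 2.715 and 2.112%.

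**Figure D2:**
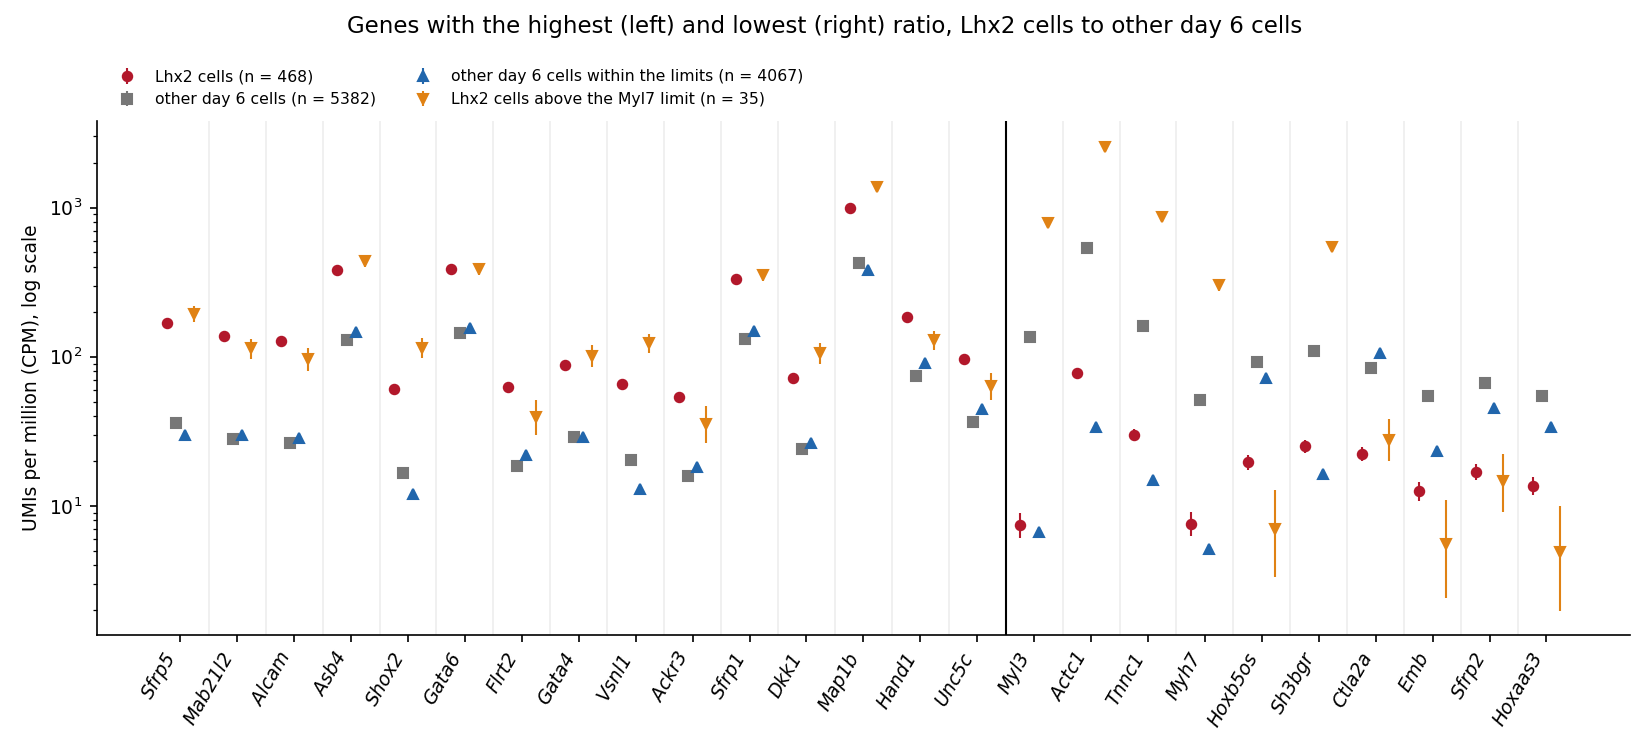
Summed level in CPM (log axis) of the 15 genes with the highest and the 10 with the lowest ratio of *Lhx2* cells to other day 6 cells among genes of at least 50 CPM in the higher set, with 95% Poisson intervals. The 15 genes on the left are higher in the *Lhx2* cells than in both sets of other cells. On the right *Myl3*, *Actc1*, *Tnnc1*, *Myh7* and *Sh3bgr* are lower than in all other cells but not than in other cells within the limits.

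Several of the lowest ratios follow from the rule. *Myl3*, *Actc1*, *Tnnc1*, *Myh7* and *Sh3bgr*, all genes of the contractile apparatus or its partners in muscle, had ratios of 0.1202 to 0.2937 against all other cells, which hold the cardiomyocytes that the *Myl7* limit removes. The same 5 had ratios of 1.046 to 2.008 against the other cells within the limits. The other 5, *Hoxb5os*, *Ctla2a*, *Emb*, *Sfrp2* and *Hoxaas3*, had ratios of 0.2919 to 0.3666 against all other cells. Within the limits *Emb* had 0.678 and *Hoxaas3* 0.5395, so these were no longer at least 2 times lower, while the other 3 were. *Hoxb5os*, a transcript antisense to the HoxB cluster, was at 19.7 CPM against 91.75 CPM in all other cells and 72.02 CPM in those within the limits. *Ctla2a*, an endothelial transcript, was at 22.24 CPM against 84.09 and 106.2 CPM. It was at 53.61 CPM in members with 2 UMIs of *Lhx2* and at 7.297 CPM in those with 3 or more, and its ratio of 0.3427 became 0.1855 with at least 3 UMIs and 0.1809 without the highest doublet scores. *Sfrp2*, another secreted Wnt inhibitor, was at 16.83 CPM against 66.83 and 45.16 CPM, so members of the Sfrp family lay at both ends of the order.

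The juxta-cardiac and the septum transversum and proepicardium lists share *Gata4*, and differences between lists were not tested. Of 4 juxta-cardiac genes compared, 3 were at least 2 times higher in the members, *Mab21l2*, *Gata4* and *Hand1*, and the median ratio was 2.407. *Hand1*, a bHLH factor of extraembryonic and splanchnic mesoderm (chr11:57828705-57832818), was at 184.8 CPM (178.0 to 191.8) against 74.54 CPM, and the fourth gene, *Bmp4*, was at 100.5 against 49.77 CPM. Against the other cells within the limits 3 of the 4 again passed, with *Bmp4* at a ratio of 2.143 in place of *Hand1*. Of 4 septum transversum and proepicardium genes 3 were at least 2 times higher, *Tbx18*, *Gata4* and *Gata5*, with a median of 2.038. *Tbx18*, a T-box gene of the proepicardium and sinus horns (chr9:87702800-87731260), was at 19.44 CPM (17.27 to 21.8) against 4.374 CPM, a plain ratio of 4.444 (3.866 to 5.099). Only *Gata4* of this list passed 2 times against the other cells within the limits. The Wilms tumour gene *Wt1*, which marks epicardium and mesothelium, was at 26.85 CPM against 23.01 CPM in all other cells and 30.68 CPM in those within the limits. The mesothelial genes *Upk3b* and *Bnc1* stayed at 1.135 and 2.805 CPM in the members.

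Of 8 posterior second heart field genes compared *Tbx5*, at 48.69 CPM (45.22 to 52.36) against 16.65 CPM, and the nuclear receptor gene *Nr2f1*, at 214.5 against 101.2 CPM, were at least 2 times higher. *Tbx5* is required in the inflow tract and atria. *Wnt2*, a ligand of the inflow region, was at 84.63 CPM against 44.39 CPM, and against 27.67 CPM in the other cells within the limits. *Osr1*, a zinc finger gene of second heart field and intermediate mesoderm, was lower, at 8.616 CPM (7.194 to 10.24) against 26.13 and 34.26 CPM. *Foxf1*, a target of Hedgehog signals in splanchnic mesoderm, was at 9.217 against 7.566 CPM. The list's median ratio was 1.14. Within the limits 3 of 7 genes were at least 2 times higher, *Wnt2* in addition to both, and 1, *Osr1*, at least 2 times lower, with a median of 1.164. The anterior second heart field had none of 7 genes at least 2 times higher and 1 at least 2 times lower, with a median of 1.002. That gene was *Fgf8*, which signals in the pharyngeal arches and outflow tract, at 1.536 against 18.05 CPM. *Mef2c* and *Hand2* were at 229.6 and 245.7 CPM against 130.8 and 125.7 CPM.

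Of 4 somitic genes compared, *Pax3* and *Tcf15* were at least 2 times lower, at 1.67 and 3.34 CPM against 14.52 and 20.18 CPM, and the median was 0.5171. *Meox1* was at 16.77 against 37.94 CPM. None of 3 intermediate mesoderm genes passed 2 times in either direction against all other cells. In the limb bud and lateral plate list, *Tbx5* was the 1 of 5 genes that passed, all 5 had ratios above 1, and the median was 1.488. *Lhx9*, a LIM gene close in sequence to *Lhx2* and used with it in the limb, was found in 1.282% of the members. The eye field and forebrain genes *Rax*, *Six3*, *Six6* and *Otx2* had 0 UMIs in the members.

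Markers of other cell types differed by type and by comparison. The endothelial list summed to 98.25 CPM in the members, 214.3 CPM in all other cells and 278.3 CPM in those within the limits. *Cdh5*, the junction cadherin of endothelium, had a UMI in 4.487% of members and 9.755% of the other cells. The list of neural ectoderm summed to 16.97 CPM in the members, 91.39 CPM in all other cells and 33.37 CPM in those within the limits. The pluripotency list summed to 3.674, 53.45 and 3.494 CPM in the same order, and the haematopoietic list to 4.141, 35.31 and 36.33 CPM, with *Gfi1b* and *Ptprc* at 0. The endoderm list summed to 174.5 CPM in the members, below the 235.5 CPM of all other cells and above the 134.7 CPM of those within the limits, most of it in the members from *Krt8* and *Krt18*, while *Afp* was at 0 and *Spink1* at 0.7347 CPM. The cardiomyocyte list summed to 1210 CPM in the members, 2319 CPM in all other cells and 502.5 CPM in those within the limits. Of its genes 5 of 10 were at least 2 times lower than in all other cells, and 5 of 6 at least 2 times higher than within the limits, with a median of 2.133. *Myl4* was at 301.4 CPM against 76.09 CPM there, and 2550 of its UMIs lay in the 64 members with *Myl7* at 10 to 30 per 10000. With *Myl7* under 10 per 10000 in both sets the ratio of *Actc1* was 1.120 in place of 2.008. The part of cardiac transcripts in the other differences was not tested beyond the *Myl7* bands. The limits on *Epcam*, *Sox2* and *Myl7* set part of these values.

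Of 11 mesenchymal genes *Twist1* and *Pdgfra* were at least 2 times higher, and the median ratio was 1.328. The median was 1.12 within the limits and 1.013 against the *Tcf21* positive cells, with none past 2 times in either. *Twist1*, a bHLH factor of embryonic mesenchyme, was at 309.1 CPM (300.3 to 318.2) against 148.7 CPM, and *Pdgfra*, the receptor that marks lateral and cardiac mesoderm, at 106.5 against 47.6 CPM. Neither passed against the other cells within the limits, with ratios of 1.626 and 1.695. Of 17 extracellular matrix genes none passed 2 times in either direction. The highest of them were *Tnc*, at 29.39 against 10.38 CPM, and *Col5a1*, at 50.56 against 25.1 CPM. The basement membrane collagen gene *Col4a1* was lower, at 46.89 against 78.42 CPM. Of 10 imprinted genes none passed 2 times. *Dlk1* was at 1137 against 597.6 CPM and *Mest* at 425.2 against 558.4 CPM.

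Of 13 Wnt pathway genes compared, the secreted inhibitors *Sfrp5*, *Sfrp1* and *Dkk1* were at least 2 times higher and *Sfrp2* at least 2 times lower, and the median was 0.8342. *Sfrp1* was at 333.1 CPM (323.9 to 342.5) against 132.0 CPM. *Dkk1*, which blocks the LRP coreceptors, was at 71.94 CPM (67.7 to 76.36) against 23.92 CPM. *Lef1*, a nuclear effector and target of Wnt signals, was at 11.35 against 25.22 CPM, and *Axin2*, a feedback target, had a ratio of 0.8987. Within the limits 4 of 12 passed, the ligand *Wnt2* being the fourth with a ratio of 2.512, and *Sfrp2* was again lower.

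In the BMP pathway 1 of 13 genes passed 2 times and the median ratio was 1.461. *Bambi*, a decoy receptor induced by BMP signals, was at 465.1 CPM (454.3 to 476.2) against 226.8 CPM. *Id4* was at 32.86 against 11.9 CPM, and the inhibitory *Smad6* and *Smad7* at 44.89 and 117.6 CPM against 24.83 and 72.21 CPM. *Id1*, another BMP target, was at 309.3 against 325.2 CPM. Against the other cells within the limits *Id4* and *Bmp4* passed 2 times, with ratios of 2.344 and 2.143, and *Bambi* had 1.893.

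The other pathways showed few genes past 2 times. Of 9 FGF genes *Fgf8* was lower, and the target genes *Etv4* and *Etv5* were at 9.351 and 5.277 CPM against 20.81 and 12.8 CPM. Of 6 retinoic acid genes none passed, with *Crabp2* nearest at a ratio of 0.5116, which was 0.9262 against the other cells within the limits. Of 4 Hedgehog and 6 Notch genes none passed, and *Ptch1*, the receptor and target of Hedgehog, was at 23.18 against 45.05 CPM. Among 17 guidance and adhesion genes *Unc5c*, a netrin receptor, and *Nrp1*, a receptor of semaphorins and VEGF, were at least 2 times higher, at 96.32 and 123.0 CPM against 36.31 and 51.23 CPM. *Robo2*, a Slit receptor, was at 48.63 against 19.74 CPM, a ratio of 1.972. Within the limits *Robo2*, at 2.023, was the only gene of this list past 2 times, while *Unc5c* and *Nrp1* had 1.946 and 1.985. Of the LIM domain partners *Ldb1*, the cofactor that Lhx proteins bind, was at 40.34 against 35.99 CPM, and *Lmo4* at 117.2 against 83.34 CPM.

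Of 24 Hox genes compared, 11 were at least 2 times lower in the members and none was higher, with a median ratio of 0.5894. Of the 13 in paralogue groups 6 to 13, which are expressed in the trunk and tail, 10 were at least 2 times lower, with a median of 0.4327. Of the 11 in groups 1 to 5, expressed in hindbrain, pharynx and neck, 1 was, and the median was 0.7306. *Hoxc10* was at 6.412 CPM (5.194 to 7.83) against 47.45 CPM, *Hoxc9* at 8.55 against 44.19 CPM and *Hoxb9* at 17.63 against 64.25 CPM. The exception in groups 1 to 5 was *Hoxd4*, at 13.29 against 40.83 CPM. *Hoxb2* and *Hoxb4* were higher, at 130.0 and 77.48 CPM against 94.97 and 61.22 CPM. Against the other cells within the limits 6 of the posterior genes and 1 of the anterior genes were at least 2 times lower, with medians of 0.5018 and 0.7647. The comparison with *Tcf21* positive, *Lhx2* negative cells gave 1 of 11 posterior genes and none of 10 anterior genes, with medians of 0.6058 and 0.7652. The difference between both groups of Hox genes was not tested. Neighbouring Hox genes overlap in transcripts, so their counts are not independent.

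**Figure D3:**
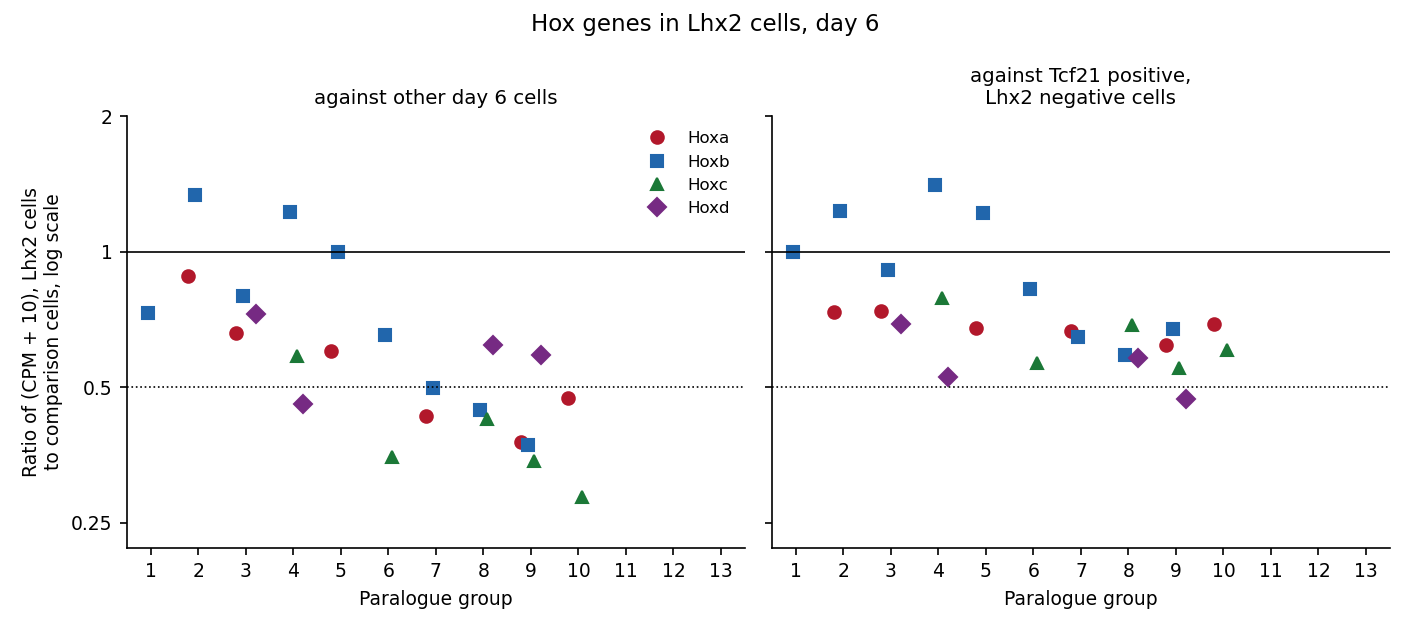
Ratio of CPM plus 10 (log axis) of *Lhx2* cells to other day 6 cells (left) and to *Tcf21* positive, *Lhx2* negative cells (right) for each Hox gene with at least 10 CPM in *Lhx2* cells or other day 6 cells, by paralogue group. The dotted line marks a ratio of 0.5. On the left the lowest value is *Hoxc10* at 0.2857 and the highest *Hoxb2* at 1.334. On the right the values of the posterior groups are nearer to 1, with *Hoxc10* at 0.6058.

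None of the cell cycle genes compared passed 2 times, but most were slightly lower in the members. A list of 42 S phase genes summed to 27.62 UMIs per 10000 in the members and 32.95 in the other cells, and 52 genes of G2 and M phase to 73.95 and 75.03. Only 1 of 40 S phase genes compared and 16 of 51 of G2 and M phase had a ratio above 1, against 53.65% of all genes compared. The median per cell was 20.78 against 25.89 for S phase and 28.19 against 41.04 for G2 and M phase. In the *Tcf21* positive, *Lhx2* negative cells described below the sums were 34.7 and 89.53. Immediate early and stress genes, which also respond to dissociation, summed to 3.389 against 2.606 UMIs per 10000. None of 7 such genes passed 2 times, and *Egr1* was at 73.54 against 48.98 CPM. Their part in the other differences was not tested.

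*Tcf21* positive, *Lhx2* negative cells, which held at least 2 UMIs of *Tcf21*, none of *Lhx2* and passed the same limits, numbered 572 with a median depth of 26249.5 UMIs. Over 8105 genes the median ratio of *Lhx2* cells to these cells was 0.9973. At least 2 times higher in the *Lhx2* cells were 51 genes, 0.629%, and at least 2 times lower 14, 0.173%. The highest ratios were those of *Sfrp5*, at 168.1 against 23.08 CPM, and *Mab21l2*, at 137.5 against 24.4 CPM, with plain ratios of 7.282 (6.551 to 8.111) and 5.633 (5.072 to 6.269). They were followed by the atrial myosin light chain gene *Myl4*, at 301.4 against 67.45 CPM, then *Shox2*, *Vsnl1*, *Alcam*, *Wnt2* and *Cbfa2t3*. Higher in the *Tcf21* positive cells were *2610528A11Rik*, at 145.6 against 28.12 CPM, *Ifitm1*, *Tmem158*, *Armh4*, *Rprm*, *Tshz2*, *Ppp1r14a* and *Rgs5*.

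Among the regulators, *Isl1* was at 63.77 CPM in the *Tcf21* positive cells, nearly 2 times the 32.06 CPM of the *Lhx2* cells, a plain ratio of 0.5028 (0.4508 to 0.5601). Its thinned share was 25.7% (22.16 to 29.49%) there and 14.96% (11.85 to 18.52%) in the *Lhx2* cells. *Osr1* was at 46.79 CPM in the *Tcf21* positive cells and 8.616 CPM in the *Lhx2* cells. *Tbx18* was at 6.618 against 19.44 CPM and *Tbx5* at 14.1 against 48.69 CPM. *Msc* was at 0 in both sets, and *Tbx1* was at 1.496 CPM in the *Tcf21* positive cells.

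Within the *Lhx2* cells the level of *Myl7*, the atrial regulatory light chain gene, varied widely. It was at 0 UMIs in 114 members, under 1 per 10000 in 233, from 1 to 10 in 171 and from 10 to 30 in 64, with a median of 1.018. Of the last group 19 lay at 20 to 30 per 10000, just inside the limit, and 11 cells lay at 30 to 40, just outside. In all 35 cells met the rule except for *Myl7*, with a median of 51.68 per 10000. Over 8322 genes 14, 0.168%, were at least 2 times higher in the members than in these 35 cells and 170, 2.04%, at least 2 times lower, as the limit itself would give for genes of cardiac muscle. The highest in the members were *Phlda2*, an imprinted gene, at 79.42 against 7.659 CPM, *Rprm*, a cell cycle inhibitor, at 62.05 against 12.53 CPM, and the epithelial keratin gene *Krt8*, at 111.7 against 43.87 CPM.

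Along these bands cardiac genes changed in steps. *Tnnt2*, cardiac troponin T, was at 31.32, 137.6 and 590.0 CPM in the 3 bands of members and 2099 CPM in the cells above the limit. *Actc1*, cardiac actin, was at 9.29, 40.38, 422.9 and 2562 CPM. Some leading genes were also higher in the upper bands of members, with *Shox2* at 18.05, 75.16 and 179.1 CPM, *Vsnl1* at 34.24, 85.07 and 126.9 CPM and *Sfrp5* at 92.24, 228.3 and 287.3 CPM. Above the limit these 3 were at 114.2, 123.2 and 194.3 CPM. *Tbx18* was at 13.01, 27.86 and 21.07 CPM in the members and 17.41 CPM above the limit. *Nkx2-5*, the homeobox gene of committed cardiac progenitors, was at 2.522, 4.113 and 11.49 CPM in the members and 33.42 CPM above the limit.

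Other genes varied less or in the opposite order. *Gata6* was at 331.7, 429.3 and 466.9 CPM in the 3 bands and 385.7 CPM above the limit. *Hand1* was at 204.6, 168.1, 156.1 and 128.8 CPM, *Wt1* at 29.99, 26.92, 15.32 and 9.052 CPM, and *Tcf21* at 33.44, 25.8, 24.42 and 20.19 CPM. *Isl1* was at 31.45, 31.22 and 36.4 CPM in the members and 58.49 CPM above the limit. *Ebf1* was at 16.19, 6.731 and 0.9578 CPM in the members and 8.355 CPM (4.317 to 14.6) above the limit. The *Hba-x* level of 610.6 CPM above the limit came from 1 of the 35 cells, which held all 877 UMIs of this embryonic globin.

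**Figure D4:**
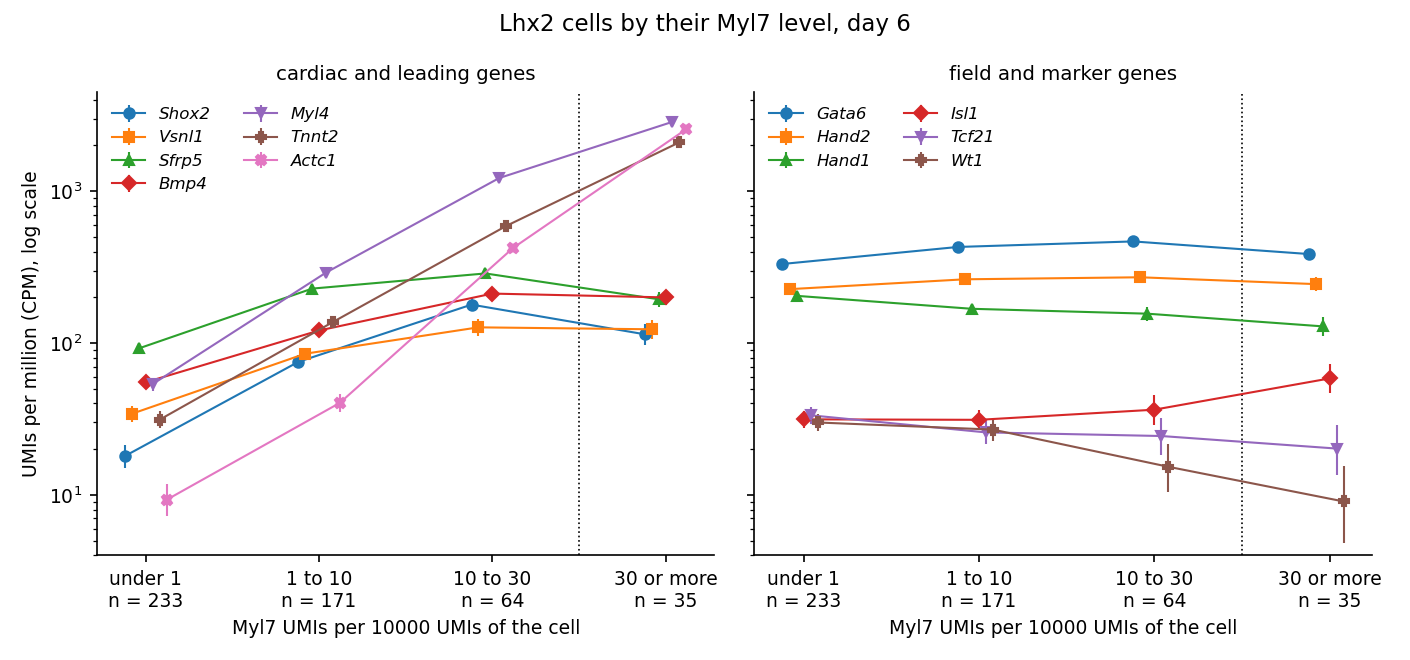
Summed level in CPM (log axis) of 13 genes, with 95% Poisson intervals, in *Lhx2* cells grouped by their *Myl7* level, with the cells above the limit of 30 per 10000 right of the dotted line. *Tnnt2*, *Actc1* and *Myl4* climb through all 4 bands, *Shox2* and *Sfrp5* are highest at 10 to 30, at 179.1 and 287.3 CPM, and *Wt1*, *Tcf21* and *Hand1* are lowest above the limit.

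The threshold on *Lhx2* itself cut through a continuous range. Within the limits 372 cells held exactly 1 UMI of *Lhx2* and were left out, while 153 members held 2 and 315 held 3 or more. *Mab21l2* was at 90.18, 123.8 and 144.0 CPM in these 3 sets, against 29.64 CPM in all other cells within the limits, which include those with 1 UMI. *Sfrp5* was at 98.82, 161.3 and 171.3 CPM and *Gata6* at 294.1, 368.3 and 393.6 CPM. *Isl1* was at 42.72, 29.19 and 33.43 CPM and *Tcf21* at 34.27, 35.19 and 26.72 CPM.

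The day 6 cells were grouped into 18 clusters by Leiden clustering with the marker and family genes left out of the variable genes. Clusters are called by number and leading genes. The members were spread over 13 clusters, and most of them lay in 4. Cluster 5 held 148 members, 31.62% of all, which made up 29.54% (25.58 to 33.75%) of its cells. Its leading genes were *Sfrp5*, *Alcam*, *Shox2*, *Mab21l2*, *Smoc2* and *Vsnl1*. Cluster 1, led by *Nusap1*, *Cenpf* and *Aspm* of dividing cells, held 126, which were 17.8% of its cells. Cluster 10, led by *Phlda2*, *Col3a1*, *Hsd11b2*, *Hand1* and *Dkk1*, held 74, 22.42% (18.04 to 27.31%) of its cells. Cluster 11, led by *Pttg1*, *Ccnb2*, *Cenpa* and *Hand1*, held 42, 14.19% of its cells. Cluster 3, led by *Rprm* and *2610528A11Rik*, held 20 and cluster 8, led by *Rgs5* and *Phox2a*, held 13. The endothelial cluster 6, led by *Ctla2a* and *Cdh5*, held 9, and cluster 7, led by *Actc1* and *Myl3*, held 2.

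**Figure D5:**
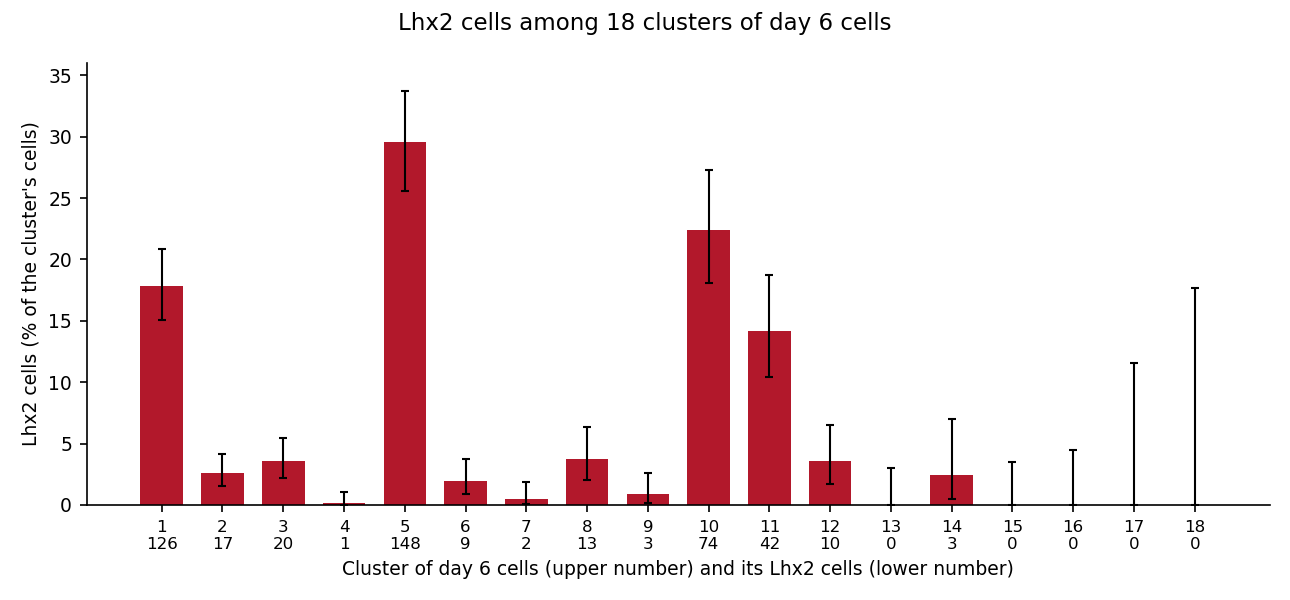
Share of each of 18 clusters of day 6 cells that were *Lhx2* cells (bars, percent, with 95% Clopper-Pearson intervals), with the cluster's number and its number of *Lhx2* cells below. Cluster 5 has the highest share, 29.54%, followed by clusters 10, 1 and 11, and 5 clusters hold no *Lhx2* cell.

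The members of different clusters were not alike. In cluster 5 they held *Sfrp5* at 336.4 CPM, *Shox2* at 108.2 CPM, *Bmp4* at 208.1 CPM and *Tbx18* at 36.99 CPM. In cluster 10 the same genes were at 47.49, 8.583, 20.6 and 8.583 CPM. *Dkk1* had the opposite order, at 74.79 CPM in cluster 5 and 139.6 CPM in cluster 10, and so had *Tcf21*, at 26.65 and 47.49 CPM. *Hand1* was at 210.8 and 229.5 CPM, and *Lhx2* at 164.8 and 212.3 CPM. Among the 4 clusters *Isl1* was highest in cluster 1, at 44.97 CPM, and lowest in cluster 10, at 15.45 CPM.

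Inside cluster 5 some leading genes were near the levels of the cells beside them that were not members, and others differed. *Sfrp5* was at 336.4 CPM in members and 295.9 CPM in the other cells of the cluster, *Alcam* at 254.6 and 213.8 CPM, *Gata4* at 145.2 and 142.2 CPM, *Gata6* at 563.0 and 526.8 CPM, *Tbx18* at 36.99 and 37.92 CPM and *Tbx5* at 84.04 and 76.25 CPM. *Hand1* was nearly 2 times higher in the members, at 210.8 against 108.0 CPM, and *Dkk1* was at 74.79 against 47.14 CPM. *Shox2* was lower, at 108.2 against 154.2 CPM, as were *Tnnt2*, at 234.4 against 335.3 CPM, *Actc1*, at 88.39 against 233.0 CPM, and *Osr1*, at 0.5439 against 6.41 CPM. The limit on *Myl7* held for the members and not for the cells beside them, and so sets part of the values of *Tnnt2*, *Actc1* and other genes that vary with *Myl7*, such as *Shox2*. *Ebf1* was at 8.159 against 3.472 CPM. In cluster 10 the members stood apart from the cells beside them, with *Sfrp5* at 47.49 against 16.62 CPM, *Vsnl1* at 69.81 against 9.249 CPM, *Nr2f1* at 115.6 against 36.37 CPM and *Mab21l2* at 95.56 against 43.11 CPM. *Hand1* was lower there, at 229.5 against 316.5 CPM. In cluster 1 *Sfrp5* was at 166.7 against 57.14 CPM, *Mab21l2* at 142.4 against 54.08 CPM and *Isl1* at 44.97 against 67.11 CPM.

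Pairs of regulators within the members varied. Among thinned members with *Tbx5*, 30.39% also held *Shox2*, against 13.11% of those without it. Those with *Wt1* held *Tbx18* in 18.37%, against 6.683% of those without. Those with *Hand1* held *Mab21l2* in 54.72%, against 37.11%. For *Tcf21* with *Tbx18* the shares were 8.197% and 7.862%, and for *Isl1* with *Tbx5* 22.86% and 21.61%. Both genes of a pair were held by 31, 9, 116, 5 and 16 thinned members in this order, so some shares rest on few cells. The differences were not tested. Only cells thinned to the same 5000 UMIs were used, and the points are cells of 1 library.

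The same rule was applied to the other days. It found 50 cells at day 4, 0.6943% (0.5157 to 0.9143%) of those that passed quality, 33 at day 5, 0.4455% (0.3068 to 0.625%), and 262 at day 11, 3.001% (2.653 to 3.381%), beside the 8.0% of day 6. Median depth was 25335, 28400.5, 25581 and 12082 UMIs at days 4, 5, 6 and 11. After thinning to 5000 UMIs, with 1 UMI of *Lhx2* enough, the shares were 1.283, 0.8835, 5.684 and 3.17%. Over all cells that passed quality *Lhx2* was at 2.561, 2.685, 14.53 and 10.6 CPM. With 1 library per day, the day and the library cannot be told apart.

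None of the 15 leading genes of day 6 was at least 2 times higher in the cells the rule found at days 4 and 5. At day 4 the highest ratio to the other cells of the day was that of *Eomes*, at 91.58 against 55.61 CPM, and at day 5 that of *Cfc1*, at 104.3 against 51.26 CPM. *Unc5c* and *Hand1*, both leading at day 6, were among the 8 highest at day 5, with ratios of 1.658 and 1.588. *Mab21l2* was at 0 CPM in the cells found at day 4 and 1.724 CPM in those at day 5. At day 11 the highest were *Lhx9*, at 120.8 against 4.973 CPM, *Crabp1*, a retinoic acid binding protein, at 1789 against 263.8 CPM, and *Pou3f1*, followed by *Lix1*, *Prrx1*, *Mab21l2* and *Hoxa10*. *Prrx1*, a homeobox gene of limb and craniofacial mesenchyme, was at 473.4 CPM there and *Hand1* at 2.048 CPM. *Ebf1* was at 253.5 CPM against 77.25 CPM in the other day 11 cells, *Isl1* at 3.276 against 16.22 CPM and *Tcf21* at 15.56 against 28.89 CPM. Of the 15 genes with the highest ratios at day 6, *Mab21l2*, *Dkk1*, *Alcam* and *Asb4* were at least 2 times higher at day 11 too, with ratios of 4.176, 3.165, 2.559 and 2.118, and the other 11 were not. *Lhx9*, the first at day 11, had a UMI in 1.282% of members at day 6. The other cells of each day included those that failed the limits on *Myl7*, *Epcam* and *Sox2*.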

How the data were processed

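Single cell RNA was counted in 1 library per day of wild type Zx1 gastruloids. The authors deposited raw UMI counts per gene and cell, not normalized, with cells already called. The submitters' notes name Cell Ranger 3.1.0 and mm10, but the day 11 matrix carries version 6.0.1 in its header and the earlier matrices 3.1.0. The annotation is not given in the sources used here, and positions are from GENCODE vM21 for mm10.

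Counts were summed over cells and scaled to CPM. Ratios are of CPM plus 10, over genes of at least 10 CPM in either set, without mitochondrial genes and the 4 genes of the rule. Plain ratios are of CPM. Levels have exact Poisson, plain ratios exact conditional binomial and shares exact Clopper-Pearson intervals, all at 95%. Cells are not replicates, the members were picked on measured values and there was 1 library per day, so no p-value was computed. No paired analysis was possible because each day has 1 library. Cells were thinned once to 5000 UMIs. Clusters came from 2000 variable genes without 165 marker and family genes, 30 components, 20 neighbours and Leiden resolution 1 (leidenalg 0.10.2, scikit-learn 1.9.0, scipy 1.17.1, numpy 2.4.6, python 3.11.15). Doublets were scored with 2 simulated doublets per cell, and none was removed in the main values. The counting of ratios was tested on simulated data.

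The genes named are up to 5 of each of the gene lists, those furthest from a ratio of 1, the pharyngeal list, the 15 highest and 10 lowest ratios among genes of at least 50 CPM, and the 8 highest and 8 lowest in the other comparisons. Genes named for Hox order, *Myl7* bands, clusters and other days were chosen after their values were seen. Some genes of the lists are not reported here. The members and lists were chosen with earlier results of these data known. No sequence is printed, since the members are cells. Alternatives were other limits on *Lhx2* and *Myl7*, other thinning depths, doublets removed, another added count, another minimum level and other resolutions.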

Additional observations from a re-analysis of the deposited data

Results flagged for a closer look

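Genes that led the *Lhx2* cells at day 6 but differed in the opposite direction in the cells that the same rule found at day 11 were singled out. *Vsnl1* had a ratio of 2.489 to the other cells at day 6 and 0.3055 at day 11. *Sfrp1* had 2.417 and 0.4588. *Hoxb5os*, among the lowest at day 6 with 0.2919, had 2.183 at day 11. At day 11 the other cells hold the cardiomyocytes that the *Myl7* limit removes, with *Myl3* at 11.67 CPM in the cells found and 679.1 CPM in the others. The paper lists *Vsnl1* among the genes of a day 11 cardiomyocyte cluster. A comparison within the limits is not given for day 11, so the rule's part in these ratios was not tested. The difference between the days was not tested either, since each day has 1 library.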

How the results depend on the processing

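The share of *Lhx2* cells was 14.36% with at least 1 UMI of *Lhx2*, 5.385% with at least 3, 5.684% with 1 UMI after thinning to 5000 and 6.906% with *Myl7* under 10 per 10000. The share of members with *Tcf21* was 17.18% when *Lhx2* itself was taken after thinning. Thinning to 3000 UMIs gave 8.974% for *Tcf21* and 8.12% for *Isl1*, and thinning to 10000 gave 22.27% and 25.05%. The genes at least 2 times higher numbered 79 without the 8% highest doublet scores and 103 with 1 CPM added instead of 10, against 51. The genes at least 2 times lower numbered 172 with 1 CPM added and 21 at a minimum of 50 CPM, against 74. These lower genes numbered 111 without the 8% highest doublet scores and 53 with no limit on *Myl7*. In comparisons added after the data had been seen they numbered 47 against other cells within the limits and 43 with *Myl7* under 10 per 10000 in both sets. There the ratios of contractile genes crossed 1, with *Myl3* at 1.046 and 1.031, *Actc1* at 2.008 and 1.120, *Tnnc1* at 1.608 and 1.285, *Sh3bgr* at 1.335 and 1.351, and *Myh7* at 1.164 in the former. At resolution 0.5 the cluster with most members had 955 cells and held 36.11% of them, and the next, of 497 cells, held 31.2%. At resolution 1 the first was cluster 5, of 501 cells, with 31.62%. The second at resolution 0.5 held 146 members at a median depth of 19721 UMIs, near the 148 members and 19721 UMIs of cluster 5. The first at resolution 0.5 had a median of 27971 UMIs. The cluster with most members thus differed between these resolutions, and not in size alone. How many cells the clusters share is not given here. Of 525 ratios of 35 named genes under these settings, 360 stayed near the main value, 156 moved and 9 reversed. The ratio of *Sfrp5* ran from 3.244 to 4.678 and that of *Shox2* from 1.801 to 3.495.

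Each day is 1 library of pooled gastruloids, so variation between gastruloids or cultures was not measured. Fewer cells of a type and less RNA per cell cannot be told apart in summed levels. Genes near 1 UMI per cell, such as *Tcf21*, *Isl1* and *Tbx18*, are limited by depth in any single cell. Free RNA was not removed.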
